A study of Mus musculus with 2 samples.

Results

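The mitochondrial ribosomal protein genes of the mouse, Mrpl for the large subunit and Mrps for the small subunit, were compared between 2 arrays of MOS-J cells. The members were chosen by gene symbol alone: a probe set had to carry exactly 1 symbol, and that symbol had to be Mrpl or Mrps followed by a number. This gave 76 genes, 47 Mrpl and 29 Mrps, of the 18193 genes named on the array. This rule reads no measured value, but the group and its rule were proposed with its differences between these arrays already known, so its shift is described here and not tested.

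MOS-J is a mouse osteosarcoma line. The control group is 1 sample of MOS-J cells carrying a control lentivirus, and the DKK1 group is 1 sample carrying a lentivirus with human DKK1, a secreted antagonist of canonical Wnt signalling that acts at the co-receptors LRP5 and LRP6. RNA came from cell pellets, and the sources used here give no time of harvest. The treatment protocol, per the labels, names lentiviral delivery with G418-selected clones, and nucleofection of a plasmid followed by blasticidin. It adds that transfected cells received a lentiviral dsRed-mito construct under the cytomegalovirus promoter, a red fluorescent protein sent to mitochondria, and were enriched by sorting. The sources used here do not say which route the arrayed cells took, whether they carried dsRed-mito, or whether each sample was a clone or a pool. The line is called an osteochondrosarcoma in the title of the series.

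Mitochondria carry their own ribosome, which makes only the few membrane proteins of the respiratory chain that are encoded in mitochondrial DNA. Its RNAs come from that DNA, while all its proteins are encoded in the nucleus, made in the cytosol and imported. Some of these proteins descend from bacterial ribosomal proteins and keep their places at the decoding and peptidyl transferase centres, and others were added in the course of mitochondrial evolution. Tumour cells depend to differing degrees on this translation system for their respiratory chain.

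The values are MAS5 signals, an intensity for each probe set on a linear scale, with both arrays scaled to a trimmed mean of 500.0. Each difference below is log2(signal + 16.6) on the DKK1 array minus that on the control array, and that of a gene averages its measured probe sets. A probe set was measured where the mean of its signals on the 2 arrays reached 71.3. A call of higher or lower needed a difference of at least 2-fold and the same sign in every measured probe set of the gene. With 1 array per group there is no replicate error and no test, and each difference describes these 2 samples. The SD given for a gene is between its probe sets on the same arrays and says nothing of the spread between cultures. A lower signal can come from fewer cells with the transcript or from less RNA per cell, which cannot be told apart in a bulk sample.

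The osteoblast markers Col1a1, Col1a2 and Sparc, a matrix collagen pair and osteonectin, were measured. Their differences were 0.79 (SD 1.05, 2 probe sets) for Col1a1, 0.05 (SD 0.41, 3 probe sets) for Col1a2 and 0.94 (SD 0.47, 3 probe sets) for Sparc, none called. The brightest probe set of Col1a2 had signals of 31456 and 24640, control first. Of the 9 osteoblast markers listed, 6 had a probe set of their own and 5 were measured. Sp7 had signals of 87.0 and 117 and Alpl of 147 and 182, differences of 0.36 and 0.27, neither called. Ibsp was below the threshold on both arrays, and Runx2, Bglap and Spp1 were not analysed here. The leukocyte marker Ptprc was dim on both arrays, at 11.7 and 4.24, and the brightest probe sets of the 6 leukocyte markers on the array summed to 377 on the control and 504 on the DKK1 array. Lyz2 among them had 14.5 and 136 and was called higher (2.29), and Laptm5 had 113 and 44.2 and was called lower (-1.10). Of 4 chondrocyte markers, Col9a1 had 48.0 and 113 and was called higher (2-fold), and Col2a1 and Acan were below the threshold. Sox9 had 584 and 519 in its brightest probe set, a difference of -0.19 (SD 0.03, 2 probe sets), and was not called. The part of other cell types in the members' values was not tested. Both probe sets of mouse Dkk1 were dim on both arrays, and human DKK1, which these mouse probe sets need not detect, was not measured here. Over all 11058 measured genes the median difference was 0.10 and 44.1% of genes were below 0.

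All 76 members were measured, through 136 of their 156 probe sets. The other 20 probe sets were too dim, and 4 further probe sets that name a member together with another gene were not used. Most members had lower signals in the DKK1 cells: 58 of 76, or 76.3%, had a difference below 0. Their median difference was -0.35, with an interquartile range of -0.71 to -0.02, beside 0.10 with an interquartile range of -0.36 to 0.56 for all measured genes. At the 2-fold rule 9 members were called lower, or 11.8%, beside 6.91% of all measured genes. Only 1 member was called higher, or 1.32%, beside 11.7% of all measured genes. At 1.5-fold, 24 members were called lower, or 31.6% beside 15.6% of all measured genes, and 4 higher, or 5.26% beside 23.6%.

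Most members were bright, and the genes with bright probe sets were centred lower than all genes. Of the 76 members, 64 had a mean signal of at least 1000, a level chosen after the data were seen. Of these, 8 were called lower, or 12.5%, beside 9.41% of all genes that bright. None was called higher, beside 10.3% of those genes. The bright members had a median difference of -0.30 and the bright genes of -0.04. The members' median minus that of all measured genes was -0.45 as reported. It was -0.28 with a loess fit on signal level and -0.31 with quantile normalization. The part of brightness in the members' shift was not tested. In the plot of signals on the 2 arrays, 99 of the 136 measured probe sets lie below the line of equal signal.

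**Figure D1:**
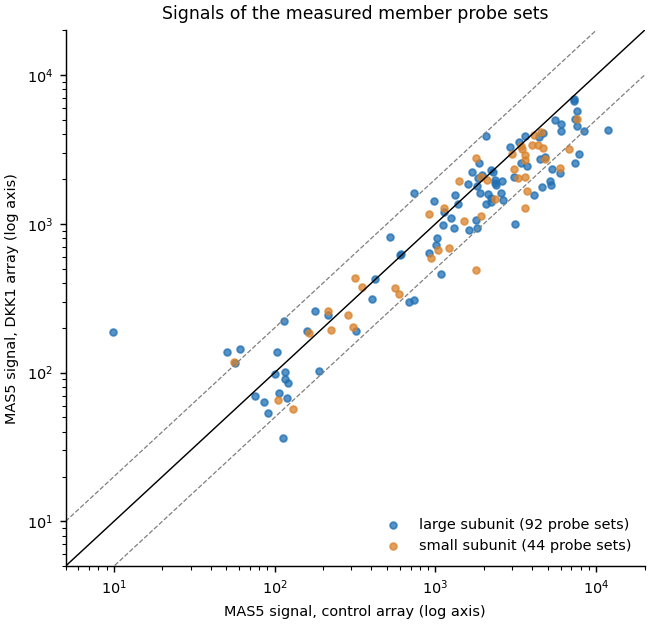
Each point is 1 measured probe set of a mitochondrial ribosomal protein gene, with MAS5 signals on log axes, x for the control array and y for the DKK1 array. The solid line is equal signal and the dashed lines are 2-fold differences of the signals; 99 of 136 probe sets have a lower signal on the DKK1 array, and the far-left point is a Mrpl38 probe set at 9.82 and 188.

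In the small subunit, 4 of 29 genes were called lower, or 13.8% beside 6.91% of all measured genes. Mrps35, a protein of the small subunit without a bacterial counterpart, had signals of 1796 on the control and 485 on the DKK1 array. Its difference of -1.85 was the lowest of all 76 members. Mrps18b, which belongs to a family of 3 relatives of bacterial protein S18, had signals of 3619 and 1283, a difference of -1.48. Mrps10, the counterpart of bacterial S10 in the head of the subunit, had 5937 and 2383, a difference of -1.31. Mrps22, a mitochondria-specific protein in which inherited human mutations cause respiratory chain deficiency, had 3703 and 1653, a difference of -1.16. Each of these genes rests on 1 measured probe set, so no second probe set checks the value. All 4 had signals well above the threshold on both arrays, from 485 to 5937.

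The Mrps18 family was not uniform. Mrps18b was called lower, while Mrps18a had signals of 4829 on the control and 2720 on the DKK1 array, a difference of -0.82 that did not reach 2-fold. Mrps18c had 3404 and 3317, a difference of -0.04. Known structures place Mrps18a in the large subunit and the other 2 in the small subunit.

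Of the other small subunit genes, 21 had differences between 0 and -1 and 4 were above 0. Mrps5 and Mrps9, counterparts of bacterial S5 and S9, had differences of -0.50 (SD 0.19, 4 probe sets) and -0.49 (SD 0.44, 4 probe sets). Mrps12, the counterpart of bacterial S12 at the decoding centre, had signals of 3009 and 2961. Mrps21, the counterpart of bacterial S21, was the highest, with signals of 1779 on the control and 2755 on the DKK1 array in 1 probe set and 55.9 and 118 in the other. Its difference was 0.76 (SD 0.19, 2 probe sets). All 3 measured probe sets of the mitochondria-specific Mrps23 had the higher signal on the DKK1 array, for a difference of 0.41 (SD 0.06). Mrps11 and Mrps7, counterparts of bacterial S11 and S7, had differences of 0.16 and 0.11.

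In the large subunit, 5 of 47 genes were called lower, or 10.6% beside 6.91% of all measured genes. Mrpl2, the counterpart of bacterial L2 near the peptidyl transferase centre, had signals of 4573 on the control and 1777 on the DKK1 array, a difference of -1.36. Mrpl37, a mitochondria-specific protein, had 732 and 309, a difference of -1.20. Its only probe set is of a kind that can match transcripts of more than 1 gene, so this value is uncertain.

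The other large subunit genes called lower were each read by more than 1 probe set. Mrpl52, a mitochondria-specific protein, had 3 bright probe sets with signals of 11828, 5156 and 5234 on the control and 4247, 1942 and 1823 on the DKK1 array. The remaining, dim probe set had 85.9 and 63.9, and the mean difference was -1.18 (SD 0.56, 4 probe sets). The 3 bright probe sets gave nearly the same ratio, and the dim one a smaller difference of the same sign. The bright probe set at 5234 on the control can match transcripts of more than 1 gene, and without it Mrpl52 was still called lower. Mrpl47, the counterpart of bacterial L29 near the exit of the peptide tunnel, had 3105 and 1002 in 1 probe set and 119 and 68.0 in the other, for a difference of -1.15 (SD 0.66). Mrpl57, a small mitochondria-specific protein, had 5963 and 2187 in 1 probe set and 188 and 103 in the other, for a difference of -1.11 (SD 0.47). In both genes the bright probe set was more than 2-fold lower and the dim one was not.

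On the lower side, the nearest members outside the 2-fold rule were Mrpl24 and Mrpl15, and the nearest inside were Mrpl57 and Mrpl47. Mrpl24, the counterpart of bacterial L24, had signals of 8399 and 4208, a difference of -0.99. Mrpl15, the counterpart of bacterial L15, had 4 bright probe sets with signals of 7792, 7387, 5344 and 4113 on the control and 2945, 2544, 2348 and 1553 on the DKK1 array. Each of these 4 was more than 2-fold lower, but those at 7792 and 7387 on the control can match transcripts of more than 1 gene. The other measured probe sets of Mrpl15 were dim, at 320 and 190 for 1 and at 104 and 137 for the other. The gene's mean was thus -0.98 (SD 0.71, 6 probe sets) and its signs were mixed. On its brightest probe set alone Mrpl15 was called lower, at -1.40.

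On the higher side the only call rests on 1 dim probe set. Mrpl38, a mitochondria-specific protein of the large subunit, had signals of 604, 160 and 9.82 on the control and 622, 191 and 188 on the DKK1 array. The mean difference was 1.08 (SD 1.63, 3 probe sets), but the brightest probe set gave 0.04. It was called higher in only 4 of 14 other processing settings.

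Mrpl11, the counterpart of bacterial L11 at the base of the stalk where translation factors bind, was just under the 2-fold rule on the higher side. Its 4 probe sets had signals of 2073, 1864, 731 and 50.6 on the control and 3866, 2559, 1619 and 136 on the DKK1 array. All 4 were higher on the DKK1 array, for a difference of 0.92 (SD 0.33), and the median of the 4 gave 1.01. The probe sets at 2073 and 731 on the control are of a kind that can match transcripts of more than 1 gene. The bright probe set not of that kind, at 1864 and 2559, gave 0.45. Mrpl34 and Mrpl21, counterparts of bacterial L34 and L21, followed at 0.62 (SD 0.32, 2 probe sets) and 0.42 (SD 0.64, 2 probe sets). The brightest probe set of Mrpl21 had 2266 and 2221, so its difference came from a dim probe set.

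Several members with functions of their own lay between these ends. Mrpl12, a stalk protein that is also known to bind mitochondrial RNA polymerase, had signals of 7616 on the control and 4566 on the DKK1 array, a difference of -0.74. Mrpl45, which attaches the ribosome to the inner membrane, had 2343 and 1977, a difference of -0.24. Mrpl58, a peptidyl-tRNA hydrolase that rescues stalled ribosomes and is built into the large subunit, had 3628 and 3904, a difference of 0.11. Mrps30, which structures place in the large subunit despite its symbol, had 1210 and 686, a difference of -0.80. Mrps36, now known as a component of the oxoglutarate dehydrogenase complex and of neither subunit, had 2083 and 1972, a difference of -0.08.

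**Figure D2:**
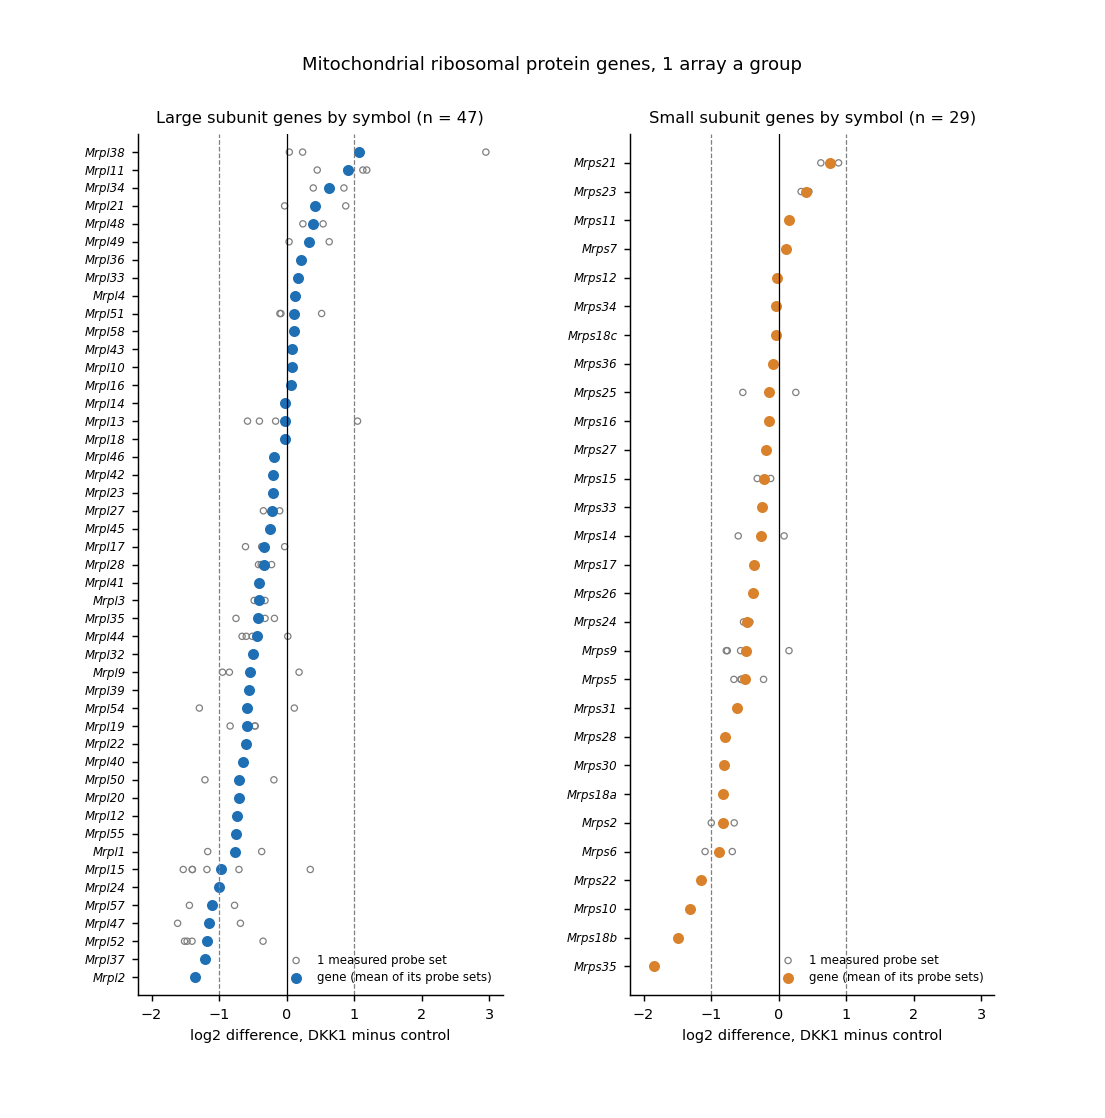
Log2 difference of the DKK1 array minus the control array for each of the 47 large subunit genes (left) and 29 small subunit genes (right), by symbol; filled points are gene means, open points single measured probe sets, and dashed lines mark 2-fold. Genes run from 1.08 (Mrpl38) to -1.36 (Mrpl2) in the large subunit and from 0.76 (Mrps21) to -1.85 (Mrps35) in the small subunit.

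Probe sets of the same gene often disagreed at low signal, and in some genes also well above the threshold. Of the 35 members with at least 2 measured probe sets, 25 had all of 1 sign and 10 had mixed signs. The pooled SD between probe sets of a member was 0.54, beside 0.45 over the 4978 measured genes with at least 2. Mrpl13, for instance, had signals of 7578, 5555 and 3069 on the control and 5728, 4962 and 2049 on the DKK1 array in its bright probe sets. Its dim probe set had 60.6 and 143, which brought the mean to -0.02 (SD 0.74, 4 probe sets). Mrpl54 showed the reverse, with 1961 and 2124 in its bright probe set, 113 and 36.3 in its dim one and a mean of -0.59 (SD 0.995). Mrpl9, at -0.54 (SD 0.63, 3 probe sets), had 2 probe sets near 2-fold lower and a dimmer one slightly higher. Neither probe set of Mrpl50 was dim, yet 1 had 1252 and 1097 (-0.19) and the other 1083 and 459 (-1.21), SD 0.72. Mrpl1 likewise had 405 and 310 (-0.37) in 1 measured probe set and 690 and 297 (-1.17) in the other, SD 0.57. Members with 3 or more probe sets that agreed more closely were Mrpl3 at -0.41 (SD 0.08), Mrpl28 at -0.34 (SD 0.10), Mrps5 and Mrps23. In Mrpl28, Mrps5 and Mrps23, some of these probe sets can match transcripts of more than 1 gene. Mrpl19 at -0.59 (SD 0.21), Mrpl44 at -0.44 (SD 0.31), Mrpl35 at -0.42 (SD 0.30) and Mrpl17 at -0.34 (SD 0.29) were also below 0, and Mrpl51 at 0.11 (SD 0.35) was above it.

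Both subunits were centred below 0. The large subunit genes had a median of -0.34, with 33 of 47 below 0 (70.2%), 5 called lower (10.6%) and 1 higher (2.13%). The small subunit genes had a median of -0.37, with 25 of 29 below 0 (86.2%), 4 called lower (13.8%) and none higher. Of all measured genes, 44.1% were below 0, 6.91% were called lower and 11.7% higher. The differences between these shares were not tested. The small subunit median minus the large subunit median was -0.03. With genes placed by known structure, the medians were -0.40 for 49 large subunit genes and -0.31 for 26 small subunit genes, so the order of the subunits turned.

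Members were then divided by descent, following the structural naming of the ribosome, which counts Mrps18a and Mrps18b as mitochondria-specific although they are related to S18. The 44 measured counterparts of bacterial ribosomal proteins had a median of -0.34, with 33 below 0, none called higher and 3 called lower, or 6.82%, which is near the 6.91% of all measured genes. The 31 measured mitochondria-specific proteins had a median of -0.40, with 24 below 0, 1 called higher and 6 called lower, or 19.4%; Mrps18b is among these 6. The difference between these shares was not tested. The proteins of the mitochondrial ribosome whose symbols do not start with Mrp gave values on the same side. All 5 measured of 6 listed were below 0 and none was called, with a median of -0.52. Dap3, a GTP-binding protein of the small subunit, had signals of 2925 on the control and 2034 on the DKK1 array, a difference of -0.52. Gadd45gip1, a large subunit protein, had 2299 and 1389, a difference of -0.72, the lowest of the 5. The small subunit proteins Chchd1 and Ptcd3 were at -0.58 and -0.38 (SD 0.63, 2 probe sets for Ptcd3), and the membrane insertase Oxa1l, a partner of the ribosome, was at -0.17 (SD 0.46, 3 probe sets).

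The cytosolic ribosome and the respiratory chain were set beside the members. Of 48 cytosolic ribosomal protein genes, 44 were measured, 40 of these were below 0 and none was called in either direction. Their median was -0.41, with a narrow interquartile range of -0.46 to -0.34. The nuclear genes of the respiratory chain and ATP synthase, of which 75 of 82 were measured, had a median of -0.10 and an interquartile range of -0.32 to 0.12. In this list 2 genes were called lower, the muscle isoform Cox6a2 of a cytochrome c oxidase subunit at -1.59 and Uqcr10 at -1.03 (SD 0.63, 3 probe sets), and 1 higher, Atp5md at 1.61. The members thus had a median close to that of the cytosolic ribosomal proteins and a spread several times as wide. This closeness depended on the scaling: with quantile normalization the cytosolic median was -0.09 and the members' -0.36, and with a loess fit on signal level -0.12 and -0.31.

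**Figure D3:**
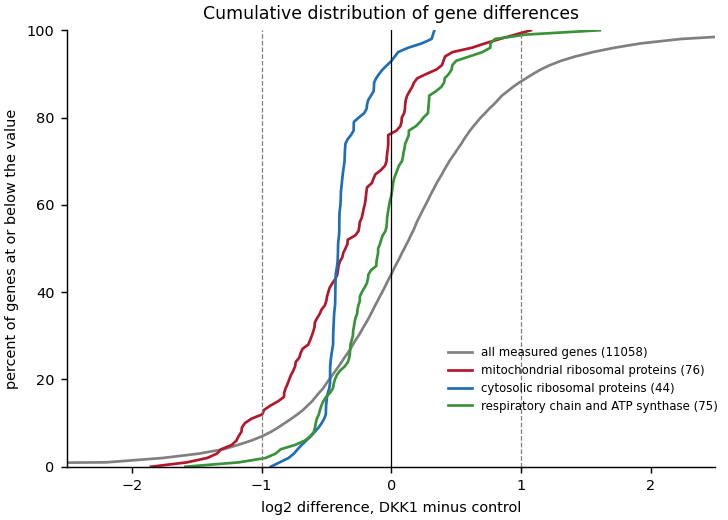
Cumulative percent of genes at or below each log2 difference (DKK1 minus control) for all 11058 measured genes, 76 mitochondrial ribosomal protein genes, 44 cytosolic ribosomal protein genes and 75 respiratory chain and ATP synthase genes; dashed lines mark 2-fold. The cytosolic curve rises steeply near its median of -0.41, the mitochondrial ribosomal curve (median -0.35) is broader, and the medians of the respiratory chain genes (-0.10) and of all genes (0.10) lie to its right.

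Other parts of mitochondrial translation had medians nearer to 0. Of 15 mitochondrial translation factors, 13 were measured, 2 were called lower, or 15.4% beside 6.91% of all measured genes, and none higher, with a median of -0.10. Tsfm, the exchange factor for the elongation factor Tu of mitochondria, had signals of 1936 on the control and 740 on the DKK1 array, a difference of -1.37. Lrpprc, which stabilises mitochondrial messenger RNAs, had 1611 and 599, a difference of -1.40. The elongation factor Gfm1 was at -0.87 (SD 0.45, 2 probe sets) and the GTPase Guf1 at 0.85 (SD 0.32, 2 probe sets).

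Of 25 assembly factors of the mitochondrial ribosome, 23 were measured, 2 were called lower and 1 higher, with a median of -0.16. The 8.70% called lower is near the share of all measured genes. The RNA-binding protein Fastkd2 was at -1.23 (SD 0.50, 3 probe sets), and the GTPase Gtpbp10 at -1.12 (SD 0.67, 2 probe sets). Mtg2, another GTPase of large subunit assembly, was at 1.11 (SD 0.93, 4 probe sets), with signals of 348 and 446 in its brightest probe set. Of 17 mitochondrial tRNA synthetases, 13 were measured and 1 was called lower, Nars2, with 696 and 278 and a difference of -1.27. The median of the synthetases was -0.25, and their 7.69% called lower is also near the share of all measured genes.

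All 17 regulators of mitochondrial biogenesis listed were measured, with 2 called lower (11.8%), none higher and a median of -0.19. The coactivator Ppargc1b had signals of 367 on the control and 98.3 on the DKK1 array, a difference of -1.74. Myc, a transcription factor that drives ribosome production among much else, had 3597 and 1235, a difference of -1.53. Tfam, which packages mitochondrial DNA and starts its transcription, was at -0.95 (SD 0.12, 2 probe sets), just short of 2-fold. Nrf1 and Gabpa, transcription factors known to bind promoters of nuclear genes for mitochondrial proteins, were at -0.12 (SD 0.49, 4 probe sets) and 0.08 (SD 0.81, 2 probe sets).

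The upstream sequences of the members were searched for motifs of such factors, because most members lay on the same side of 0. RefSeq promoter windows of assembly GRCm38.p6, each running from 250 bases before a gene's start to 50 after it, were found for 67 of the 76 members, 73 windows in all. The ETS motif CCGGAAG, which GABP binds, was in 34.2% of member windows on either strand, beside 8.86% of all 32851 windows and 17.7% of the 11526 windows of measured genes. The YY1 motif AAGATGGC was in 16.4% of member windows, beside 2.75% of all and 4.45% of those of measured genes. The NRF1 motif GCATGCGC was in 10.96%, beside 2.71% and 5.21%. The E-box CACGTG, which MYC binds, was in 9.59%, beside 7.15% and 9.90%. The motif TGATGCAA, bound by ATF4, was in none of the 73, beside 0.895% and 0.581%. These letters were counted on both strands, a window could hold several motifs, and a match is not evidence of binding.

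For each motif found, members with it and members without it both had medians below 0. The 25 genes with the ETS motif had a median of -0.14 with 4 called lower, and the 42 without it had a median of -0.45 with 4 called lower. The order was the same for YY1, at -0.20 in 12 genes with the motif, 1 called lower, and -0.37 in 55 without, 7 called lower. It was the opposite for NRF1, at -0.52 in 8 genes with the motif, 1 called lower, and -0.26 in 59 without, 7 called lower. The E-box went the same way as NRF1, at -0.70 in 5 genes, 2 called lower, and -0.34 in 62, 6 called lower. Of all 76 members 11.8% were called lower, beside 6.91% of all measured genes, and the differences between motif groups were not tested. The 250 bases before the start are given for 4 members, as examples of where these motifs lie, and because the ETS motif stands upstream of members called lower and of one well above 0. Capitals mark the ETS motif or its reverse complement in Mrpl52, Mrps22 and Mrpl34, and the NRF1 motif in Mrps18b. They are given on the strand of the gene, 5′ to 3′, with Mrpl52 at chr14:54426659-54426908 (plus strand), Mrps22 at chr9:98601680-98601929 (minus strand), Mrps18b at chr17:35916441-35916690 (minus strand) and Mrpl34 at chr8:71464676-71464925 (plus strand).
Mrpl52: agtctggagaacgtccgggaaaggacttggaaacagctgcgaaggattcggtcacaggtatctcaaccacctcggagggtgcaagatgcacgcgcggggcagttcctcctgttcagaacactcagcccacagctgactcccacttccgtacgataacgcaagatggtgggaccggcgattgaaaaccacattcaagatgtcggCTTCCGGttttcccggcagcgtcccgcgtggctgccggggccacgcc
Mrps22: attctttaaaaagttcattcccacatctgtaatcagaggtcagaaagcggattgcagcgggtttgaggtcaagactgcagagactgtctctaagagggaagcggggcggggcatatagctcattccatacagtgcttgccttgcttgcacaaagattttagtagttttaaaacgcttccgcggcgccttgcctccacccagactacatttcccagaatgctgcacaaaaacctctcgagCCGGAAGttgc
Mrps18b: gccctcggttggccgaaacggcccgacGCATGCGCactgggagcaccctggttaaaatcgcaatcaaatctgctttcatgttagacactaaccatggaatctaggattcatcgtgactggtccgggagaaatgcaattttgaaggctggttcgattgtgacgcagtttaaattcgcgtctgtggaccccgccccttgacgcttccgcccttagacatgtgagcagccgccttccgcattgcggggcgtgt
Mrpl34: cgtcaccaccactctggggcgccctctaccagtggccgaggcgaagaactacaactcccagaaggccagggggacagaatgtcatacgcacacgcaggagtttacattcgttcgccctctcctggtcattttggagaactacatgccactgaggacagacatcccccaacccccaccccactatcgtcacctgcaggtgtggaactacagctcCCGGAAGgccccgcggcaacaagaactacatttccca
The ETS motif begins 47 bases before the start in Mrpl52, 11 in Mrps22 and 37 in Mrpl34, and the NRF1 motif 223 before the start in Mrps18b. The searched windows also run past the printed bases. There, after the start, Mrps18b holds an ETS motif and another NRF1 motif, and Mrpl52 another ETS motif. Mrpl52, Mrps22 and Mrps18b were called lower, at -1.18, -1.16 and -1.48, while Mrpl34, which holds the same ETS letters, was at 0.62.

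Many members share a promoter region with a gene read from the opposite strand. A start of another gene lay head to head within 1000 bases for 25 members, and the partner was measured for 20 of them. The difference of partner and member had the same sign in 10 of these 20, and none of the partners was called lower or higher. The median difference of the partners was -0.06. Mrpl2, at -1.36, starts 141 bases from Klc4, at 0.68. Mrpl47, at -1.15, starts 308 bases from Ndufb5, a subunit of respiratory complex I, at -0.04 (SD 0.12, 2 probe sets). Mrpl57, at -1.11, starts 76 bases from Ska3, at -0.69. Mrpl46 and Mrps11 are partners of each other, 42 bases apart and counted from each side, at -0.19 and 0.16.

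Members also differed by chromosome, and so did the other genes there. On chromosome 17, all 8 members were below 0, with a median of -0.58, and Mrps18b, Mrpl2 and Mrps10 among them were called lower. All members were likewise below 0 on chromosomes 1, 2, 4, 10, 14, 15 and 16, and 76.3% of all members were below 0. The other 517 measured genes of chromosome 17 had a median of 0.05, with 46.2% below 0. On chromosome 14, the 3 members had a median of -1.11 and 2 were called lower. The other 371 genes there had a median of -0.23, with 60.9% below 0. Of all measured genes 6.91% were called lower, and the share called among the other genes of each chromosome was not counted. On chromosome 19, all 5 members were above 0, with a median of 0.33: Mrpl11, Mrpl21, Mrpl49, Mrpl43 and Mrpl16. The other 400 measured genes of chromosome 19 had a median of 0.50, with 24.8% below 0. The median of these 5 members was thus below that of the other genes there, with Mrpl11, at 0.92, above it. A part of chromosome position in these values was not tested.

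**Figure D4:**
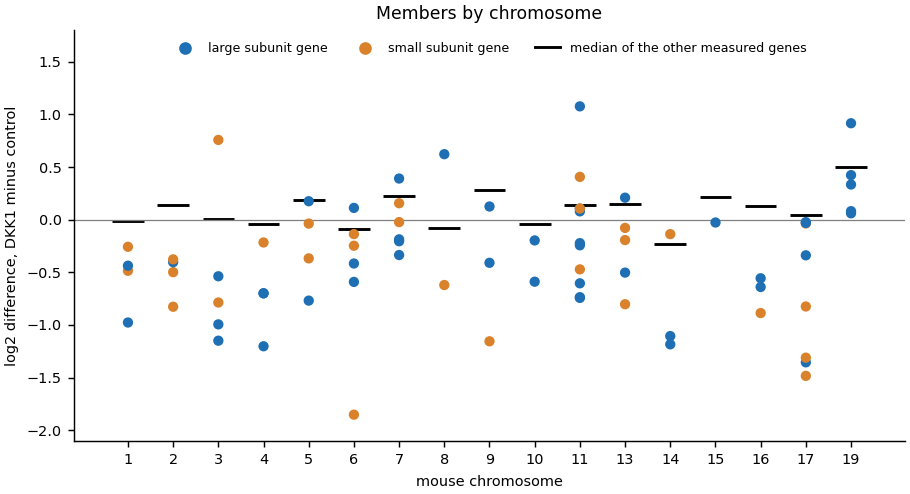
Log2 difference (DKK1 minus control) of each member by mouse chromosome, coloured by subunit, with a black bar at the median of the other measured genes of that chromosome. All 5 members on chromosome 19 lie above 0 where the other genes have a median of 0.50, and all 8 on chromosome 17 lie below 0 where the other genes have a median of 0.05. All members on chromosomes 1, 2, 4, 10, 14, 15 and 16 also lie below 0.

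How far below 0 the members lay depended on the scaling of the arrays. Scaling by 1 factor per array, as on control probe sets, leaves their distance from the other genes nearly fixed by construction. The 2 scalings that depend on signal level, quantile normalization and loess, moved that distance more than the members' own median. The 18 hybridisation control probe sets, for RNAs added after labelling, had a median log2 ratio of -0.37, and the 20 measured poly-A control probe sets, for RNAs added to the sample, of 0.64. Scaled on the hybridisation controls, the members had a median of 0.02, with 2 of 76 called lower and 4 of 76 higher. All measured genes had a median of 0.47 in this setting, with 2518 of 11443 called higher and 398, or 3.48%, lower. The share called higher was thus smaller among the members than among all measured genes. Scaled on the poly-A controls, the members had a median of -0.93, with 35 of 76 called lower and none higher. All measured genes then had a median of -0.53, with 24.3% called lower and 4.13% higher. Each of these scalings moves all genes alike: of the calls over all genes, 62.9% were higher as deposited, 86.4% on the hybridisation controls and 14.6% with poly-A scaling. The median of the members minus that of all measured genes was -0.45 as reported, -0.28 with the loess fit, -0.31 with quantile normalization and -0.48 with no pseudocount. The members' own median was -0.35 as reported, -0.31 with the loess fit and -0.36 with quantile normalization. Of the 76 members, 61 lay below the median of all measured genes as reported, 51 with loess and 52 with quantile normalization. Mrps35 and Mrps18b were called lower in all 14 other settings. Mrpl2, Mrps10, Mrps22 and Mrpl52 were called lower in 13 of 14 and Mrpl37 in 12 of 13, each lost on the hybridisation controls.

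**Figure D5:**
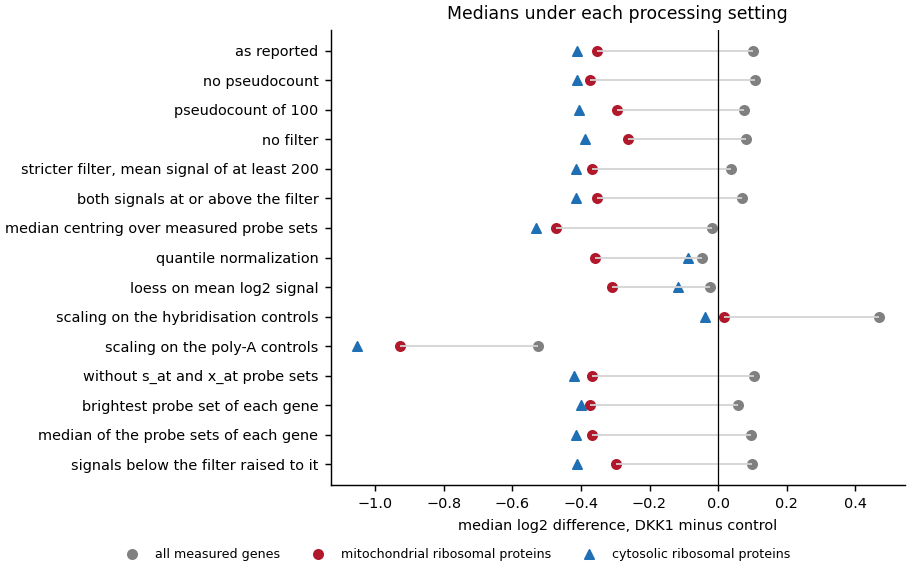
Median log2 difference (DKK1 minus control) of all measured genes, the mitochondrial ribosomal protein genes and the cytosolic ribosomal protein genes under the reported processing and 14 other settings. The mitochondrial ribosomal median lies below that of all genes in each setting shown, from -0.93 on the poly-A controls to 0.02 on the hybridisation controls, and the cytosolic median moves close to that of all genes with quantile normalization and loess.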

How the data were processed

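Total RNA of the 2 samples was labelled with biotin and hybridised to 1 Affymetrix array each, per the labels' protocols. The deposited values are intensity values, 1 MAS5 signal per probe set for 45101 probe sets, per the submitters' processing notes; the sources used here give no version, settings or detection calls. MAS5 scales each array on its own, and the trimmed mean, without 2% at each end, was 500.0 on both, so a shift shared by all genes cannot be seen. Symbols came from the platform annotation, updated by gene ID through RefSeq (GRCm38.p6, which also gave chromosomes and promoter windows).

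Differences were computed with python 3.11.15, numpy 2.4.6, pandas 2.3.3 and statsmodels 0.14.6. The pseudocount of 16.6 is the 25th percentile of all signals, and it moves differences of dim probe sets towards 0; the threshold of 71.3 is the median of the mean signals. The script was tested on simulated data. The members and lists were chosen with earlier results of these data known. Of the 76 members, 38 are described by a rule: called members, the 4 highest and 4 lowest of each subunit, those with 3 or more measured probe sets or with opposed probe sets, those next to the 2-fold threshold, and 8 with special functions. Other members are named only as examples, chosen after their values were seen. Alternatives changed the pseudocount, filter, scaling, probe set rule, subunit assignment and threshold. With 1 array each, batch and group cannot be told apart, and precision is limited by the number of arrays.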

Additional observations from a re-analysis of the deposited data

How the results depend on the processing

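The direction of the members' median and the calls below 0 held in most of the settings tried, and the scaling moved them most; where no construction of the setting shows it, the cause was not tested. The count of members called lower was 9 as reported, 2 on the hybridisation controls, 35 on the poly-A controls and 24 at 1.5-fold. The shares of all measured genes called lower were 6.91%, 3.48%, 24.3% and 15.6% in the same order. The count called higher was 1 as reported, 4 on the hybridisation controls and at 1.5-fold, and 0 with a pseudocount of 100, the stricter filter of 200, both signals above the filter, median centring, quantile normalization, loess, the poly-A controls, the brightest probe set, or dim signals raised to the filter. Of all measured genes, 11.7% were called higher as reported, 23.6% at 1.5-fold and 2518 of 11443 on the hybridisation controls. Mrpl38 turned to -0.46 on the poly-A controls. Median centring gave medians of -0.47 for all members, -0.46 for the large and -0.49 for the small subunit; the hybridisation controls turned these to 0.0173, 0.0311 and 0.0036, and the poly-A controls gave -0.93, -0.88 and -1.004. The brightest probe sets gave -0.52 for the small subunit. The small minus large subunit gap of -0.03 became 0.0173 with no pseudocount, 0.0018 with the stricter filter or the median of probe sets, 0.0238 with quantile normalization, 0.0301 with loess, 0.0906 by structure and -0.20 with the brightest probe set. The median of all measured genes was -0.0193 with median centring, -0.0242 with loess, -0.0459 with quantile normalization, -0.53 on the poly-A controls and -0.0384 over bright genes, an alternative chosen after seeing the data.

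Medians of the comparison lists moved likewise. With median centring they were -0.53 for cytosolic ribosomal proteins, -0.22 for the respiratory chain, -0.64 for ribosomal proteins without an Mrp symbol, -0.22 for translation factors, -0.28 for assembly factors, -0.37 for tRNA synthetases and -0.31 for biogenesis regulators. On the hybridisation controls, in the same order, they were -0.0377, 0.27, -0.15, 0.27, 0.21, 0.11 and 0.17, and on the poly-A controls -1.05, -0.72, -1.22, -0.73, -0.79, -0.88 and -0.76. Quantile normalization and loess gave -0.0876 and -0.12 for cytosolic ribosomal proteins, -0.24 and -0.23 for translation factors and -0.38 and -0.36 for regulators, and loess 0.0196 for the respiratory chain. The proteins without an Mrp symbol were at -0.38 with no filter and -0.65 with the stricter filter or the brightest probe set, tRNA synthetases at -0.10 with no filter, regulators at -0.29 with the brightest probe set, and assembly factors at 0.0325 without probe sets that can match several genes. Mrpl57 was not called with a pseudocount of 100 or on the hybridisation controls, nor Mrpl47 with those or with no filter. No sample could be left out with 1 array per group, and no paired analysis was possible because each group has only 1 array. Differences of probe sets near the threshold are the least certain.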
